A study of Mus musculus with 8 samples.

Results

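The layout of a pair of heterochromatin marks, H3K9me3 and H4K20me3, was compared within wild-type (WT) mouse embryonic fibroblasts (MEF), which are connective tissue cells grown from embryos. Members were all peaks of the WT H3K9me3 list and of the WT H4K20me3 list on chromosomes 1 to 19, chosen by mark, genotype and chromosome alone. They numbered 14185 H3K9me3 peaks (97.2% of the 14596 in that list) and 11104 H4K20me3 peaks (98.3% of 11295), in all 25289 of the 38359 peaks in the 5 lists of the series. A peak is a stretch where chromatin immunoprecipitation followed by sequencing (ChIP-seq) gave more reads than the local background. The labels give both groups as MEF of genotype WT, name no treatment and do not say whether the cells were a line, a clone or a pool of animals. Formaldehyde at 1% was applied for 10 min, chromatin was sheared by sonication to 200 to 400 bp, and the antibody was ab8898 for H3K9me3 and ab9053 for H4K20me3. There was 1 library for each mark. A peak list holds no expression, so the cell type could not be checked against markers.

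As background, H3K9me3 is written by enzymes such as SETDB1 and the SUV39H pair, and it is bound by HP1 proteins. HP1 in turn can bring in the SUV4-20H enzymes that write H4K20me3, so the pair of marks is often described as successive steps at the same silent chromatin. Both marks are known from satellite repeats, from silenced retroelements and from imprinted control regions, and H3K9me3 also covers clusters of genes for zinc finger proteins. KAP1, the subject of the series, is brought to DNA by KRAB zinc finger proteins and in turn recruits SETDB1 and HP1.

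With 1 library per mark there was no replicate error, and no test or p-value was computed. Bracketed ranges are exact 95% intervals over peaks, for a share by the Clopper-Pearson method and for a median from order statistics. Neighbouring peaks are not independent, so these intervals cover counting error only and are narrower than the true error. The files give no read counts and the depth of each library is unknown, so a missing peak means that none was called. Positions are on build mm9 and count from 1.

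H3K9me3 peaks were short and H4K20me3 peaks longer. The median length was 459 bp for H3K9me3 (454 to 463) and 769 bp for H4K20me3 (762 to 776). From the lower to the upper quartile, lengths ran from 353 to 651 bp for H3K9me3 and from 577 to 1029 bp for H4K20me3. Peaks under 500 bp made up 57.3% of the H3K9me3 list (56.5 to 58.1%) but 14.6% of the H4K20me3 list (13.9 to 15.3%). The order was the same on all 19 chromosomes, where medians ranged from 369 to 536 bp for H3K9me3 and from 608.5 to 846 bp for H4K20me3, so the ranges did not overlap. Covered length was 8.53 Mb for H3K9me3 and 9.67 Mb for H4K20me3, although H3K9me3 had more peaks.

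The longest peaks were nonetheless those of H3K9me3. Lengths of 5000 bp and over were found for 34 H3K9me3 peaks (0.240%, 0.166 to 0.335%) and 11 H4K20me3 peaks (0.0991%, 0.0495 to 0.177%). The longest 10% of the peaks held 28.2% of the bases covered by H3K9me3 and 21.5% of those covered by H4K20me3. All 3 of the longest H3K9me3 peaks lay on distal chromosome 4, a part of the mouse genome known for a cluster of zinc finger genes. They spanned 15085 bp (145709101 to 145724185), 12044 bp (146704010 to 146716053) and 11841 bp (147008621 to 147020461). The nearest H3K9me3 peak was 7, 10 and 62 bp away from them, in the same order, so each directly adjoined a further peak. The longest of them overlapped an H4K20me3 peak, and the other two lay 101 and 107 kb from one. The 3 longest H4K20me3 peaks were found on different chromosomes, at 20015067 to 20025011 of chromosome 8 (9945 bp), 90158183 to 90167107 of chromosome 1 (8925 bp) and 79197894 to 79205637 of chromosome 10 (7744 bp). The first and the third overlapped H3K9me3, and the second lay 30.6 kb from it.

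Length was tied to the score that the authors' peak caller gave each peak, and the order of the marks turned with it. Across peaks, which are not replicates, Spearman's rho between length and score was 0.87 in both lists. H3K9me3 scores were mostly low, with a median of 75.1, and 49.9% of its peaks scored from 50 to under 75, while 17.8% of H4K20me3 peaks did and their median score was 164. In that weakest band the median length was 354 bp for H3K9me3 (352 to 356) and 462 bp for H4K20me3 (457 to 466). From 100 to under 200, the medians were close, at 690 bp (681 to 697) and 718 bp (712 to 726). From 200 to under 500, H3K9me3 was the longer mark, with 1201 bp (1178 to 1232) against 978 bp (969 to 987). At 500 and over, the 196 H3K9me3 peaks had a median of 2506 bp (2345 to 2672) and the 1166 H4K20me3 peaks one of 1498 bp (1467 to 1521). The shorter median of the H3K9me3 list went with its larger share of low scores. With a score of at least 100 required, the medians of the lists were 769 and 896 bp. Scores depend on the depth of a library, so a band does not stand for the same amount of mark in both lists.

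**Figure D1:**
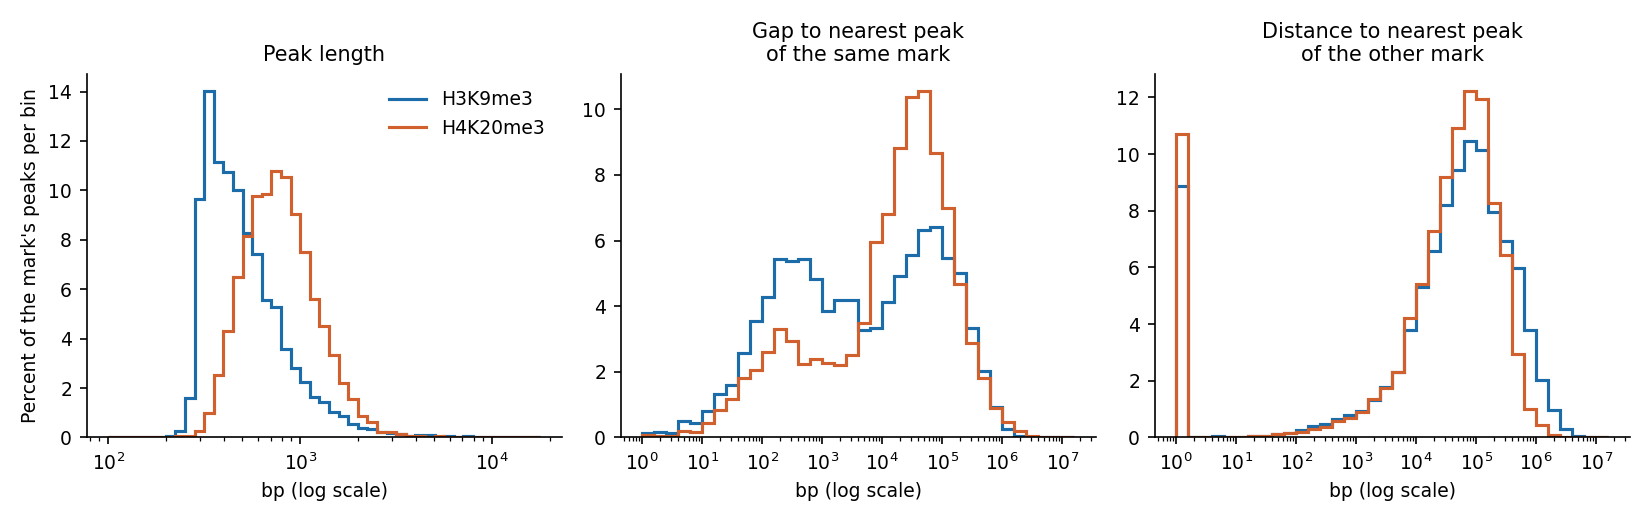
Percent of each mark's peaks per bin against length (left), gap to the nearest peak of the same mark (middle) and distance to the nearest peak of the other mark (right), in bp on log axes. Gaps of H3K9me3 fall into a group below 5 kb and a group above 10 kb. H4K20me3 gaps lie mostly above 10 kb, and the bar at 1 bp on the right holds the overlapping peaks, with a distance of 0.

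Peaks of H3K9me3 lay close together in groups, and peaks of H4K20me3 stood more apart. The gap from a peak to the nearest one of the same mark had a median of 4656 bp for H3K9me3 (4203 to 5289) and 22247 bp for H4K20me3 (21346 to 23148). A neighbour of the same mark lay within 500 bp for 29.1% of H3K9me3 peaks (28.4 to 29.9%) and for 16.8% of H4K20me3 peaks (16.1 to 17.5%). Within 10 kb, the shares were 55.5% (54.7 to 56.3%) and 36.8% (35.9 to 37.7%). At 100 kb the marks came close to each other, with 82.9% (82.2 to 83.5%) and 82.0% (81.3 to 82.7%). The marks thus differed in spacing over short distances and hardly over 100 kb. The share within 10 kb was higher for H3K9me3 on all 19 chromosomes, and it ranged from 37.8% (chromosome 14) to 71.8% (chromosome 4) for H3K9me3 and from 22.7% (chromosome 7) to 48.8% (chromosome 17) for H4K20me3. The median gap was shorter for H3K9me3 on 17 of them. The exceptions were chromosome 7 (44569 bp for H3K9me3 and 38081 bp for H4K20me3) and chromosome 14 (62460 and 38226 bp), both poor in peaks.

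Gaps between consecutive peaks along the chromosome showed the same division. Of 14166 such gaps in the H3K9me3 list, 16.6% were under 500 bp, 15.9% ran from 500 bp to under 5 kb, 4.09% from 5 to under 10 kb and 26.9% from 100 to under 500 kb. In the H4K20me3 list, 8.79% of 11085 gaps were under 500 bp, and 25.6% ran from 10 to under 50 kb, where H3K9me3 had 16.1%. The difference in the median gap depended on which peaks were counted. With a score of at least 100 required, the median nearest gap was 38630 bp for H3K9me3 and 40214 bp for H4K20me3. With peaks of a mark within 5 kb merged, the order turned to 55524 and 41913 bp. The share with a neighbour within 10 kb still differed at a score of at least 100, at 38.3 and 23.6%.

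When peaks of a mark no more than 10 kb apart were chained, H3K9me3 formed 8993 groups and H4K20me3 8728. Single peaks accounted for 44.5% of H3K9me3 peaks (43.7 to 45.3%) and 63.2% of H4K20me3 peaks (62.3 to 64.1%). Groups of 10 or more peaks numbered 32 for H3K9me3, with 790 peaks (5.57%, 5.20 to 5.96%), and 2 for H4K20me3, with 22 peaks (0.198%, 0.124 to 0.300%). The 3 largest H3K9me3 groups lay on chromosome 4 and held 114 peaks (146490620 to 146824666), 73 peaks (145260428 to 145489832) and 50 peaks (146017758 to 146146279). They spanned 334, 229 and 129 kb, of which peaks covered 61.2, 42.9 and 34.7%. H4K20me3 had far fewer peaks than H3K9me3 there, with 7, 5 and 0 within these spans. Against its mean of 4.61 peaks per Mb over all chromosomes, H4K20me3 was nonetheless dense in the first and second span. It was absent from the third. The largest H4K20me3 group had 12 peaks over 33.1 kb of chromosome 6 (149250455 to 149283532), and 4 H3K9me3 peaks lay within it. The next had 10 peaks over 32.1 kb of chromosome 17 (75643986 to 75676084), with 6 H3K9me3 peaks.

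Density per chromosome varied strongly for both marks, and in parallel. Over the stretch from the first to the last peak of either mark, the mean was 5.89 H3K9me3 and 4.61 H4K20me3 peaks per Mb. H3K9me3 was densest on chromosome 17, with 10.98 peaks per Mb, and sparsest on chromosome 18, with 1.66. H4K20me3 was densest on chromosome 11, with 7.97 peaks per Mb, closely followed by chromosome 17 with 7.90, and it too was sparsest on chromosome 18, with 1.94. The highest density exceeded the lowest 6.60 times for H3K9me3 (5.54 to 7.90) and 4.11 times for H4K20me3 (3.49 to 4.87). Over the 19 chromosomes, Pearson's r between the densities was 0.85 and Spearman's rho 0.87. Without chromosomes 17 and 18, the farthest from the median of H3K9me3 density, r was 0.77 and rho 0.83. Chromosomes are not replicates, and both marks were measured in WT MEF with 1 library each, so this is a description of these lists.

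The balance between the marks also varied. There were 1.28 H3K9me3 peaks for each H4K20me3 peak in all, 1.69 on chromosome 4 (1283 and 760 peaks) and 0.758 on chromosome 7 (317 and 418 peaks). Chromosomes 3 and 10 came close to chromosome 4, both with 1.69 when rounded. H4K20me3 peaks outnumbered H3K9me3 peaks on 5 chromosomes, namely 7, 9, 11, 14 and 18. In covered length per Mb, chromosome 4 had 7.14 kb of H3K9me3 and 4.22 kb of H4K20me3, while chromosome 11 had 4.48 and 7.42 kb.

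**Figure D2:**
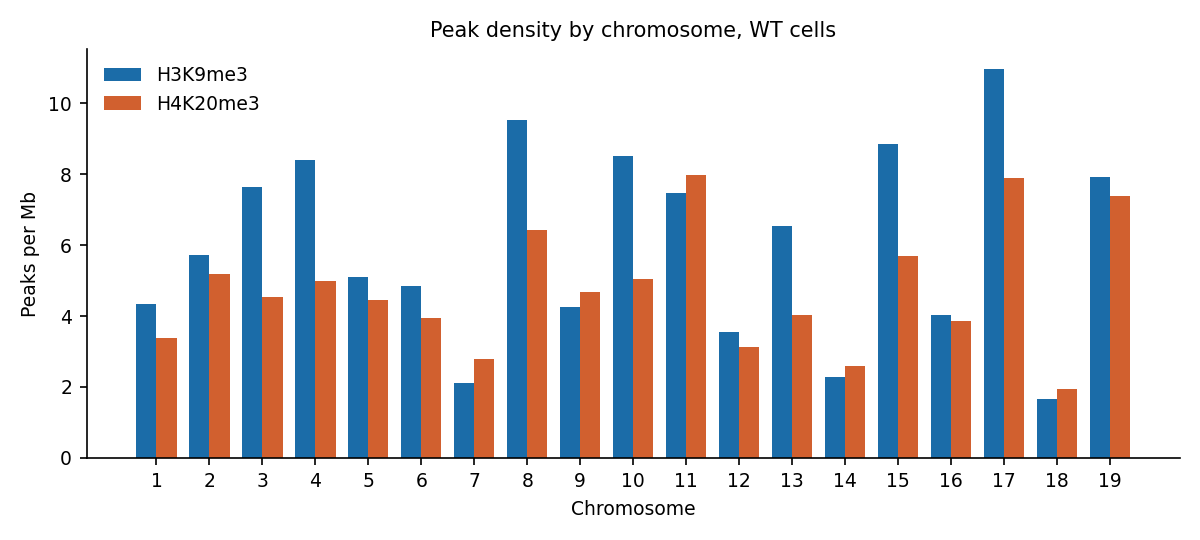
Bars give peaks per Mb of H3K9me3 (blue) and H4K20me3 (orange) for chromosomes 1 to 19. Both marks are lowest on chromosome 18, at 1.66 and 1.94 per Mb. H3K9me3 is highest on chromosome 17 and H4K20me3 on chromosomes 11 and 17.

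Taken over all chromosomes, both marks were most frequent near the distal end. Mouse chromosomes have their centromere at the end where the numbering starts. The stretch from the first to the last peak of either mark on each chromosome was divided into 10 equal parts. On chromosome 14 this stretch began only at 7728086. The last part held 17.0% of H3K9me3 peaks (16.4 to 17.6%) and 14.0% of H4K20me3 peaks (13.4 to 14.7%). Chromosome 4 made this difference, since the last part held 50.7% of its H3K9me3 peaks. Without chromosome 4 the shares were 13.6% for both marks. The last part held over 10% of the peaks on 13 of 19 chromosomes for H3K9me3 and on 12 for H4K20me3. It was lowest on chromosome 18, with 4.11 and 0.588%. The first part, the nearest to the centromere, held 10.5% of H3K9me3 peaks (9.97 to 10.98%) and 8.05% of H4K20me3 peaks (7.55 to 8.57%), and 10.7 and 8.14% without chromosome 4. It held over 10% of the peaks on 11 chromosomes for H3K9me3 and on 4 for H4K20me3. Among these 4 was chromosome 19, with 28.4% of its H4K20me3 peaks in the first part.

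In windows of 1 Mb, H3K9me3 was present more widely and reached the highest counts. Of 2419 windows, 89.5% held an H3K9me3 peak (88.2 to 90.7%) and 77.2% an H4K20me3 peak (75.5 to 78.9%). The median count was 4 for H3K9me3, with quartiles of 2 and 8, and 3 for H4K20me3, with quartiles of 1 and 6.5. The highest count was 280 for H3K9me3 and 38 for H4K20me3, and the variance over windows was 16.1 times the mean for H3K9me3 and 6.25 times for H4K20me3. The larger variance of H3K9me3 rested on 3 windows, at 146 to 147 and 145 to 146 Mb of chromosome 4 and 81 to 82 Mb of chromosome 10. Without the first 2 of them the values were 7.47 and 6.22 times the mean, and without all 3 they were nearly equal, at 6.20 and 6.19. The densest 5% of windows, 121 for each mark, held nearly the same share, 23.8% of H3K9me3 peaks (23.1 to 24.5%) and 22.8% of H4K20me3 peaks (22.1 to 23.6%). Without chromosome 4 the order turned, with 21.02 and 23.2%. Of these 121 windows, 43 were the same for both marks (35.5%, 27.0 to 44.8%).

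Windows rich in one mark tended to hold the other. Both were present in 1731 windows (71.6%, 69.7 to 73.4%), which held 89.4% of H3K9me3 and 96.6% of H4K20me3 peaks. H3K9me3 alone was found in 433 windows, H4K20me3 alone in 137 and neither in 118. The mean number of H4K20me3 peaks was 1.49 in windows without H3K9me3, 3.67 in windows with 3 to 5 H3K9me3 peaks, 9.29 in those with 11 to 20 and 15.1 in the 55 windows with 21 or more. Spearman's rho between the counts was 0.52 over all windows and Pearson's r 0.40, or 0.52 without the 2 windows that held most H3K9me3. Within single chromosomes rho had a median of 0.47 and ranged from 0.20 to 0.72. The relation depended on scale, with a rho of 0.22 for windows of 0.1 Mb and 0.71 for windows of 10 Mb. Within single chromosomes the rho for windows of 10 Mb had a median of 0.63 and ranged from 0.03 to 0.92. The 24100 windows of 0.1 Mb outnumbered the peaks of either mark, so many held none, and the part of this in the low rho was not tested. Windows are not independent, and they share the libraries and the mappable length of the region.

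**Figure D3:**
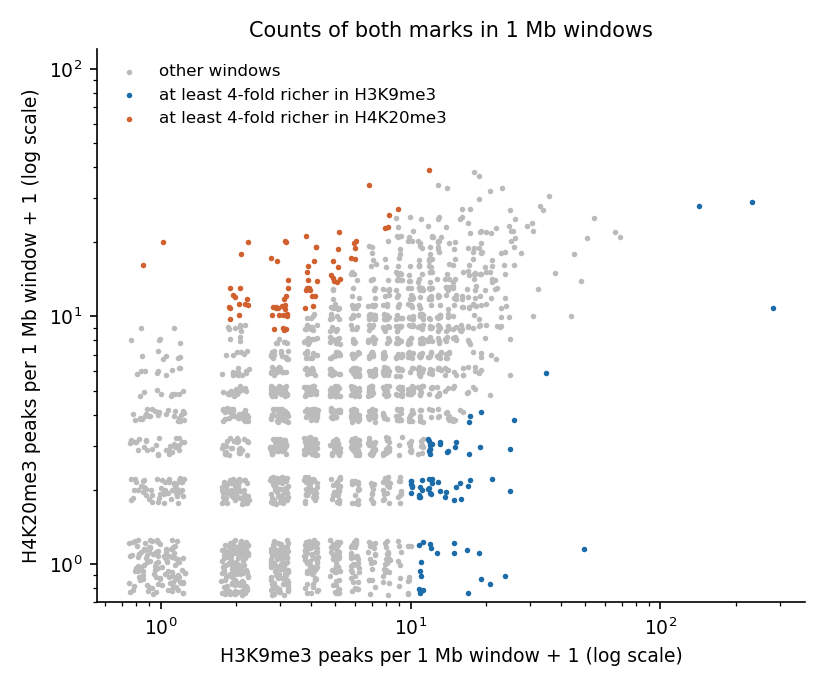
Each point is a window of 1 Mb, with its number of H3K9me3 peaks plus 1 on the x axis and of H4K20me3 peaks plus 1 on the y axis (log scales, with a small random shift so that points do not hide each other). Counts rise together, and the windows with most H3K9me3 lie far to the right, at up to 280 peaks, without a matching rise in H4K20me3.

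A minority of windows leaned strongly to one mark. A window was called richer in a mark when its share of that mark's list was at least 4 times its share of the other list, among the 981 windows with at least 10 peaks in all. By this rule 77 windows (7.85%) were richer in H3K9me3 and 76 (7.75%) in H4K20me3. The H3K9me3-rich windows held 11.8% of all H3K9me3 peaks and 1.34% of H4K20me3 peaks, and 14 of them lay on chromosome 3 and 9 each on chromosomes 4 and 13. The H4K20me3-rich windows held 9.60% of H4K20me3 and 1.53% of H3K9me3 peaks, and 11 of them lay on chromosome 2 and 10 on chromosome 4. H3K9me3-rich windows were found on 16 chromosomes and H4K20me3-rich windows on 17, so most chromosomes, chromosome 4 among them, had both kinds. Spacing in the windows differed in the manner of the whole lists. H3K9me3 peaks in the windows rich in H3K9me3 had a median nearest gap of 622 bp, while H4K20me3 peaks in those rich in H4K20me3 had one of 17518 bp. The few H4K20me3 peaks in H3K9me3-rich windows lay near the other mark, 59.7% of them within 10 kb. In H4K20me3-rich windows 7.32% of H4K20me3 peaks did, and 34.1% of the few H3K9me3 peaks lay within 10 kb of H4K20me3. The 3 windows with most H3K9me3 were among the H3K9me3-rich ones and held 280, 232 and 141 of their 1673 H3K9me3 peaks. They also held 10, 28 and 27 of the 149 H4K20me3 peaks, of which 10, 28 and 20 lay within 10 kb of H3K9me3. The values without these 3 windows were not computed. Windows of both kinds were picked by the counts themselves, so the figures describe them only.

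The windows with most H3K9me3 were densely filled. At 146 to 147 Mb of chromosome 4 there were 280 H3K9me3 peaks covering 351 kb and 10 H4K20me3 peaks covering 13.7 kb. The adjoining Mb, from 145 to 146, had 232 and 28 peaks, and 81 to 82 Mb of chromosome 10 had 141 and 27. The median gap between H3K9me3 neighbours was 335.5, 394 and 366 bp in these windows. H4K20me3 peaks in the chromosome 4 windows mostly sat on H3K9me3, 9 of 10 in the first and 25 of 28 in the second, while on chromosome 10 it was 12 of 27. Seen from H3K9me3, 8 of 280, 21 of 232 and 12 of 141 peaks overlapped H4K20me3, against 8.88% of the whole list. The first window was below that share, and the others were near it.

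The windows with most H4K20me3 looked different. They held 38 H4K20me3 peaks at 5 to 6 Mb of chromosome 19, 37 at 79 to 80 Mb of chromosome 10 and 36 at 76 to 77 Mb of chromosome 15. H3K9me3 was present there with 11, 17 and 18 peaks. Median gaps between H4K20me3 neighbours were 7048, 9921 and 10829 bp, above the gaps of the H3K9me3 windows. The H3K9me3 windows were picked for higher counts in the same 1 Mb, so their shorter gaps follow from the counts. Overlap with H3K9me3 was found for 1 of 38, 4 of 37 and 3 of 36 H4K20me3 peaks, against 10.7% of the whole list. The first window was below that share, and the others were near it. The window at 79 to 80 Mb of chromosome 10 lies 1 Mb from the H3K9me3 window named above.

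Some windows held many peaks of one mark and none of the other. H3K9me3 without any H4K20me3 peak was found at 66 to 67 Mb of chromosome 13 (48 peaks), 60 to 61 Mb of chromosome 4 (23 peaks) and 4 to 5 Mb of chromosome 13 (20 peaks). H4K20me3 without any H3K9me3 peak was found at 108 to 109 Mb of chromosome 9 (19 peaks), 52 to 53 Mb of chromosome 7 (15 peaks) and 103 to 104 Mb of chromosome 12 (8 peaks). The median gap was 1473, 384 and 641 bp in the former and 23609, 29092 and 16805 bp in the latter, in the same order. Windows rich in both marks existed too. At 149 to 150 Mb of chromosome 6 there were 32 H3K9me3 and 27 H4K20me3 peaks, and 13 of each overlapped the other mark. At 86 to 87 Mb of chromosome 8 there were 35 and 30, but 4 of each overlapped, so similar counts came with different degrees of contact.

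**Figure D4:**
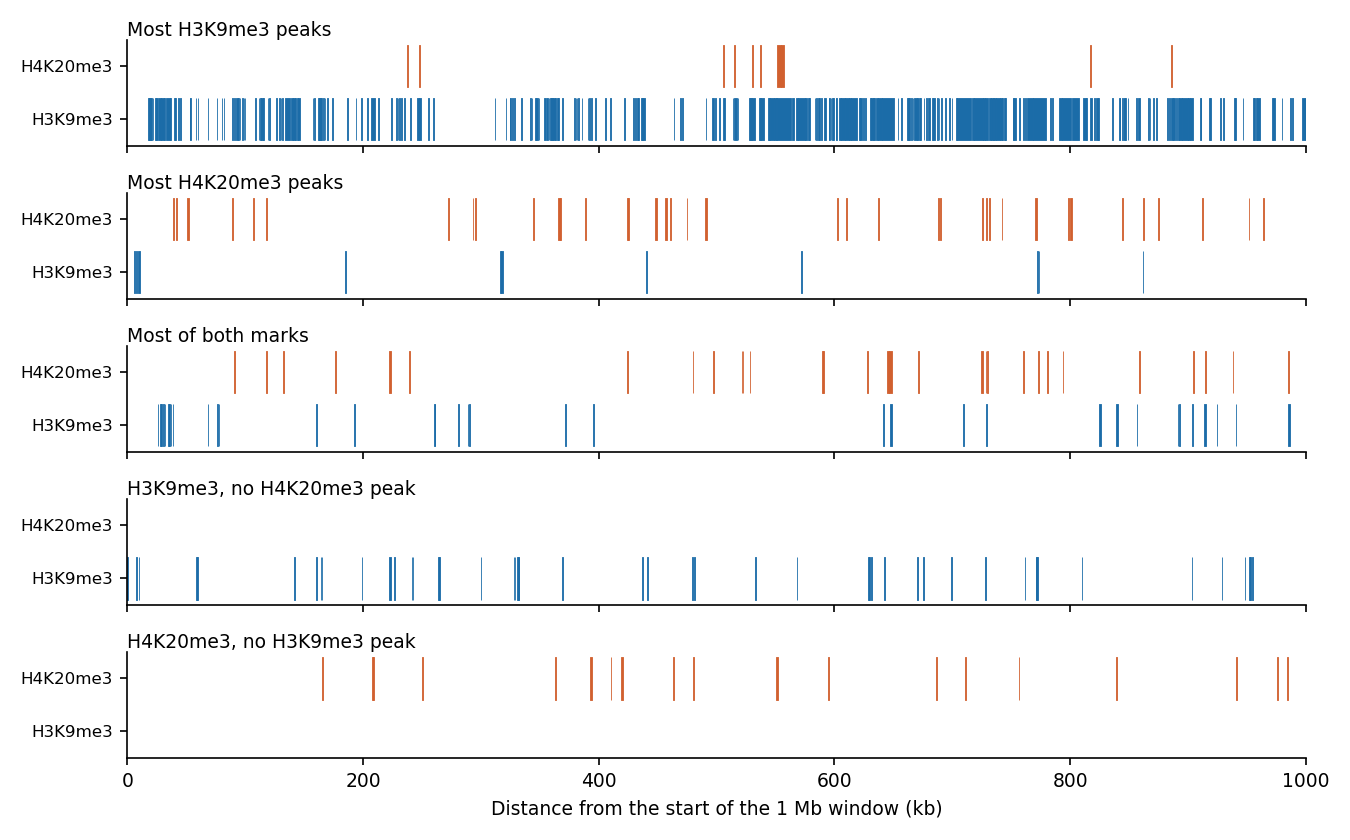
Peaks of H4K20me3 (orange, upper row) and H3K9me3 (blue, lower row) drawn to scale in 5 windows of 1 Mb, against the distance from the window's start in kb. From top to bottom they hold 280 and 10, 11 and 38, 35 and 30, 48 and 0, and 0 and 19 peaks of H3K9me3 and H4K20me3. H3K9me3 forms dense blocks at the top, and H4K20me3 is spread out in every panel where it is frequent.

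Most peaks of either mark lay more than 10 kb from the nearest peak of the other mark. Whether they lay nearer or farther than the densities alone would give was not tested. The median distance to the nearest peak of the other mark was 59163 bp from an H3K9me3 peak (57179 to 61527) and 48498 bp from an H4K20me3 peak (46489 to 50266). The other mark lay within 10 kb for 21.9% of H3K9me3 peaks (21.3 to 22.6%) and 23.8% of H4K20me3 peaks (23.0 to 24.6%), well below the same-mark shares of 55.5 and 36.8%. With equal numbers of highest-scoring peaks, the order of these shares turned, to 23.9 and 21.8%. The nearest neighbour was of the same mark for 70.6% of H3K9me3 peaks (69.8 to 71.3%) and 59.7% of H4K20me3 peaks (58.7 to 60.6%). Overlap took 8.88% of H3K9me3 and 10.7% of H4K20me3 peaks, and a further 2.95 and 2.55% lay within 1 kb without touching. Within 10 kb, peaks that did not touch the other mark outnumbered those that did, with 1851 against 1260 for H3K9me3 and 1455 against 1190 for H4K20me3. A distance over 1 Mb was found for 474 H3K9me3 peaks (3.34%, 3.05 to 3.65%) and 64 H4K20me3 peaks (0.576%, 0.444 to 0.735%).

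The 3 most remote peaks of each mark lay in 1 stretch without the other mark. The 3 H3K9me3 peaks farthest from H4K20me3 lay on chromosome 16 at 70639274 to 70639986, 70545600 to 70545960 and 70275587 to 70275838, at distances of 5.08, 4.98 and 4.71 Mb. The 3 H4K20me3 peaks farthest from H3K9me3 lay on chromosome 7 at 39055865 to 39056406, 39012583 to 39012958 and 38803811 to 38804484, at 4.44, 4.39 and 4.19 Mb. None of the 6 had a peak of its own mark within 10 kb, with gaps of 93313, 93313 and 104119 bp for H3K9me3 and 42906, 42906 and 208098 bp for H4K20me3. All 6 were between 252 and 713 bp long and scored between 50.7 and 155.

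Along the chromosome, a peak was followed by one of the same mark more often than that mark's share of all peaks. After an H3K9me3 peak, the next peak was H3K9me3 in 67.3% of cases (66.6 to 68.1%), while H3K9me3 made up 56.1% of all peaks. After an H4K20me3 peak, the next was H4K20me3 in 58.3% (57.4 to 59.2%), against 43.9% of all peaks. Runs of 10 or more peaks without the other mark held 22.9% of H3K9me3 peaks (22.3 to 23.6%) and 9.82% of H4K20me3 peaks (9.27 to 10.4%). The more numerous mark has longer runs in any order, and the part of the shares of 56.1 and 43.9% in this difference was not tested. Both of the longest runs were on chromosome 4. That of H3K9me3 had 89 peaks within 0.263 Mb (146551451 to 146814176), and that of H4K20me3 had 26 peaks spread over 0.960 Mb (154524614 to 155484724). These runs were picked as the longest and lay in different parts of distal chromosome 4, so they describe themselves only. In the 3 windows with most H3K9me3, H4K20me3 peaks were also closer together than in their whole list, but more numerous as well. Their median same-mark gap was 3011.5 bp at 145 to 146 Mb and 7884 bp at 146 to 147 Mb of chromosome 4. At 81 to 82 Mb of chromosome 10 it was 14108 bp, against 22247 bp over the list. These windows held 28, 10 and 27 H4K20me3 peaks, against a mean of 4.59 per window, so shorter gaps follow from the counts.

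Strong H3K9me3 peaks had H4K20me3 nearby more often than weak ones, while strong H4K20me3 peaks had H3K9me3 nearby less often than weak ones. The share of H3K9me3 peaks with H4K20me3 within 10 kb was 15.9% at scores from 50 to under 75 (15.1 to 16.8%), 25.7% from 100 to under 200 (24.2 to 27.2%), 41.8% from 200 to under 500 (38.7 to 44.8%) and 74.5% at 500 and over (67.8 to 80.4%). For H4K20me3 the course was downward, with 33.5% (31.4 to 35.6%), 24.0% (22.6 to 25.6%), 17.7% (16.4 to 19.02%) and 19.2% (17.0 to 21.6%) in the same bands. Scores of 200 and over were compared with scores under 100 on each chromosome. The share near the other mark was higher in the stronger H3K9me3 peaks on 19 of 19 chromosomes, and lower in the stronger H4K20me3 peaks on 18 of 19. The strong H3K9me3 class held only 3 peaks on chromosome 18 and 4 on chromosome 14. The exception for H4K20me3 was chromosome 14, with 4.72% of weak and 7.61% of strong H4K20me3 peaks. In all, 46.9% of strong and 17.5% of weak H3K9me3 peaks had the other mark within 10 kb, against 18.1% of strong and 31.6% of weak H4K20me3 peaks. Without chromosome 4 these shares were 46.7, 17.2, 18.3 and 31.5%. With a score of at least 100 in both lists, 22.4% of H3K9me3 and 12.7% of H4K20me3 peaks had the other mark within 10 kb. This cut took out 9688 H3K9me3 and 3299 H4K20me3 peaks. It thus also removed possible partners, more of them for H4K20me3, and these values do not show peak strength alone.

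Grouping with the same mark showed the same contrast. A neighbour of the same mark within 10 kb was found for 50.8% of the weakest H3K9me3 peaks (49.6 to 52.0%) and 82.7% of those scoring 500 and over (76.6 to 87.7%). For H4K20me3 it was found for 46.2% of the weakest (44.0 to 48.4%) and 30.7% of those scoring 500 and over (28.1 to 33.4%). The strong H4K20me3 peaks were thus mostly solitary, and the strong H3K9me3 peaks mostly had company.

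**Figure D5:**
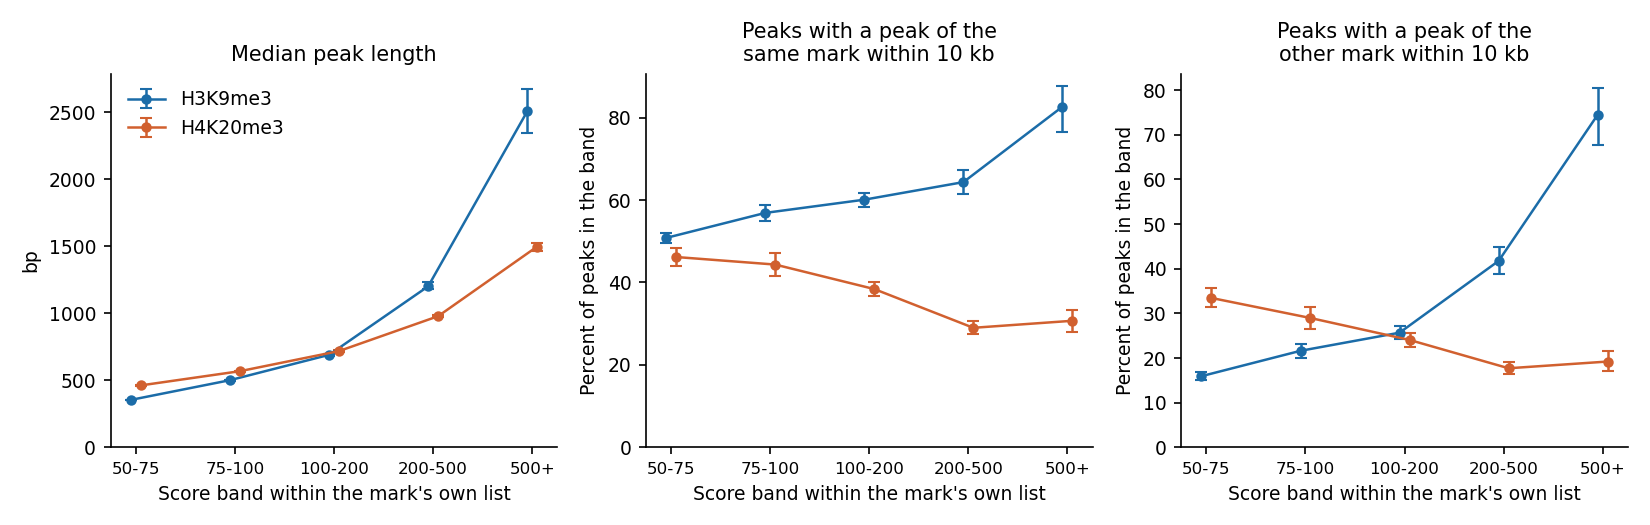
Median length in bp (left) and percent of peaks with a peak of the same mark (middle) or of the other mark (right) within 10 kb, against bands of the score in each mark's own list. Points are values over all peaks of a band, and bars are 95% intervals over peaks. The curves cross for length and for nearness to the other mark, which goes from 15.9 to 74.5% for H3K9me3 and from 33.5 to 19.2% for H4K20me3.

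Longer H3K9me3 peaks lay nearer to the other mark class by class, whereas for H4K20me3 the longest class was the nearest and the others had no steady order. The median distance from an H3K9me3 peak to H4K20me3 was 78955 bp for peaks under 500 bp, 45726 bp from 500 to under 1000 bp, 20879 bp from 1000 to under 2000 bp and 0 bp, that is overlap, at 2000 bp and over. From an H4K20me3 peak to H3K9me3 it was 40153 bp (35419 to 45740), 52186 bp (49728 to 54795) and 47196 bp (43491 to 50848) in the first 3 classes, and 8845 bp (2559 to 16609) for the 255 peaks of 2000 bp and over. The share of H4K20me3 peaks with H3K9me3 within 10 kb was 29.4% under 500 bp and 21.7% from 500 to under 1000 bp, so the shortest peaks were not the most remote. Overlap was found for 50.2% of the longest class of H3K9me3 and 41.2% of the longest class of H4K20me3. A longer peak has more chance to meet another one, and the part of peak length in these shares was not tested.

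H4K20me3 peaks in groups were found near H3K9me3 more often than single ones. Among single H4K20me3 peaks 15.9% had H3K9me3 within 10 kb (15.0 to 16.7%), in groups of 2 to 4 the share was 33.2% (31.6 to 34.7%), and in groups of 5 to 9 it was 75.4% (70.9 to 79.6%). Single H4K20me3 peaks were also the stronger ones, with a median score of 187 against 137 and 129 in those groups. For H3K9me3 the shares near H4K20me3 were 15.9, 22.1, 41.7 and 40.8% for single peaks, groups of 2 to 4, of 5 to 9 and of 10 or more. In groups of 10 or more, the median distance to H4K20me3 was 16419 bp (13802 to 21189) and 7.72% of the H3K9me3 peaks overlapped it, against 17.0% in groups of 5 to 9. H4K20me3 peaks within 10 kb of H3K9me3 had a median same-mark gap of 6161 bp, and the others 29049 bp.

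Where the marks met, neither list was simply nested in the other. There were 1364 overlapping pairs with 895 kb in common, which was 10.5% of the bases covered by H3K9me3 and 9.25% of those covered by H4K20me3. In 27.2% of pairs the H3K9me3 peak lay wholly inside the H4K20me3 peak (24.9 to 29.6%), in 20.5% the reverse held (18.3 to 22.7%), and in 52.3% the peaks were staggered. The midpoints were a median of 255 bp apart. The scores of both marks were nearly unrelated across the pairs, with a rho of 0.13. The pair that shared most bases was on chromosome 2, where an H3K9me3 peak of 11407 bp (157379229 to 157390635) held the whole of an H4K20me3 peak of 6612 bp. The next pairs shared 5928 bp on chromosome 8 (H3K9me3 from 20019084 to 20026981, H4K20me3 from 20015067 to 20025011) and 5574 bp on chromosome 3 (98228258 to 98234511 and 98228938 to 98235053).

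KAP1 peaks, a measurement that played no part in choosing the members, lay nearer to H3K9me3 than to H4K20me3. Of the 361 WT KAP1 peaks on chromosomes 1 to 19, 54.3% had H3K9me3 within 10 kb (49.0 to 59.5%) and 31.6% had H4K20me3 (26.8 to 36.6%). The median distances were 3327 bp (46 to 13855) and 34200 bp (26267 to 45567). The H3K9me3 list was also the larger, with 14185 peaks against 11104, and the part of list size in these values was not tested. Counted over the histone peaks instead, 3.20% of all H3K9me3 peaks (2.92 to 3.504%, 454 of 14185) and 1.59% of all H4K20me3 peaks (1.37 to 1.84%, 177 of 11104) lay within 10 kb of a KAP1 peak. In both lists the share was higher among peaks with the other mark within 10 kb. Within 10 kb of a KAP1 peak lay 8.02% of H3K9me3 peaks that overlapped H4K20me3 (6.58 to 9.65%), 6.05% of those with H4K20me3 within 10 kb but no overlap (5.01 to 7.24%) and 2.18% of those farther away (1.91 to 2.47%). For H4K20me3 the shares were 7.73% (6.28 to 9.40%), 3.02% (2.21 to 4.04%) and 0.485% (0.348 to 0.657%). The last of these shares stands for 41 of the 8459 H4K20me3 peaks without H3K9me3 within 10 kb.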

How the data were processed

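The authors made the peak lists on build mm9 with MACS 1.4 after Bowtie2 2.2.1 and CASAVA 1.82, per the submitters' processing notes. For call parameters and the controls of the histone calls, nothing is given in the sources used here. The deposited score of each peak was used to filter and band peaks within its own list. Peaks on chromosomes 1 to 19 of both WT histone lists were kept, with the WT KAP1 list as a further readout. The KO lists were not used. Distances run between nearest edges, with 0 for overlap, and windows of 1 Mb were filled by peak midpoint. Computation used Python 3.11.15, numpy 2.4.6, pandas 2.3.3, scipy 1.17.1 and matplotlib 3.10.9. The distance code was tested on simulated data, and bedtools 2.31.1 gave the same distance for all 14185 and 11104 peaks. Members, lists and rules were chosen with earlier results of these data known. Named regions are extremes of length, window count, distance, run and overlap, up to 3 each. Score bands, the 10 parts of each chromosome, chained groups, order along the chromosome and KAP1 distances were added after the data were seen. Genes and sequences are not given, as coordinates of build mm9 were not joined to an annotation. Alternatives are listed in the closing section.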

Additional observations from a re-analysis of the deposited data

Results flagged for a closer look

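Peaks outside chromosomes 1 to 19 were left out of the comparison but were present in both lists, 411 of H3K9me3 and 191 of H4K20me3. Chromosome X held 195 and 170 of them. Sequence not placed on a chromosome held 213 H3K9me3 and 21 H4K20me3 peaks, and the unassigned part of it alone 105 and 2.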

How the results depend on the processing

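Of 74 alternative values, 32 lay within the interval of the main value (for window counts, within 1.5 times) and 42 did not. Of the 32, 8 were identical to the main value, and most of these could not move: equal numbers leave the shorter H4K20me3 list whole, and chromosome 4 does not set either chromosome range. Values below give H3K9me3 first, then H4K20me3 where it moved too. With a score of at least 100 in both lists, median length was 769 and 896 bp, the nearest same-mark gap 38630 and 40214 bp, the share with a same-mark neighbour 38.3 and 23.6%, the chromosome range 13.4 and 5.17 times and the share in the densest windows 32.4 and 23.7%; 12.7% of H4K20me3 peaks lay near the other mark and 21 windows were richer in H3K9me3. Equal numbers of peaks gave 522 bp, a gap of 8260 bp, 51.4% with a neighbour and 25.7% in the densest windows for H3K9me3, and 23.9 and 21.8% near the other mark. Merging within 5 kb gave gaps of 55524 and 41913 bp, 18.2 and 21.8% in the densest windows, 18.98 and 20.1% near the other mark and 28 windows richer in H3K9me3. Without chromosome 4, H3K9me3 had a median length of 453 bp, a gap of 5986 bp, 53.9% with a neighbour, 21.02% in the densest windows and 13.6% in the last of the 10 parts. Without the 3 windows with most H3K9me3, an alternative added after the data were seen, variance over mean was 6.20 for H3K9me3. A neighbour distance of 5 kb gave 50.5 and 28.7%, and one of 20 kb 61.9 and 47.8%. Windows of 500 kb gave 27.5 and 26.7% and windows of 2 Mb 21.2 and 19.9% in the densest windows, and with 2 Mb 33 windows were richer in H4K20me3. The other mark lay within 1 kb for 11.8 and 13.3% and within 50 kb for 46.2 and 50.8%. H4K20me3 was longer, and H3K9me3 had the larger share with a same-mark neighbour and the wider chromosome range, under every alternative run for them. No paired analysis was possible because each mark has 1 library. The causes of these shifts were not tested, and unknown depth limits any reading of absent peaks.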
